A study of Mus musculus with 12 samples.

Results

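Collagens other than those of the cartilage and bone fibrils were followed across the hypertrophic zones of Schmid, Cog and wildtype mice. Their probes were chosen by gene name alone: every probe of the array annotated to a Col gene was taken, leaving out Col1a1, Col1a2, Col2a1, Col10a1 and all type IX and XI chains. This gave 62 probes of 31 genes among the 41174 probes tested, and 16 further collagen probes belonged to the genes left out. No measured value entered the choice. Schmid mice were homozygous for the Col10a1 p.Asn617Lys knock-in, which makes collagen X misfold. Cog mice carried the ColXTgcog transgene, a misfolding thyroglobulin driven by the collagen X promoter, and hemizygous and homozygous carriers were not told apart. Each mutant had its own wildtype group, made of wildtype littermates and called here the Schmid wildtype and the Cog wildtype. The zone was microdissected from 1 tibia of each mouse at 14 days, with 3 mice in each of the 4 groups and no treatment. The transgene and collagen X itself are switched on in hypertrophic chondrocytes, but a dissected zone also holds whatever vessel, bone or marrow cells border it.

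Collagens are trimers of chains whose glycine-rich repeats wind into a triple helix. Type IV chains form the network of basement membranes, the thin sheets under endothelium and epithelium and around some single cells, whereas FACIT collagens sit on the surface of larger fibrils or at tissue junctions, type VIII forms short-chain lattices, type VI forms beaded filaments around cells, and multiplexins such as collagen XVIII anchor in basement membranes. Transmembrane collagens are held in the cell membrane and can be shed. In the growth plate these minor collagens lie around chondrocytes, at the perichondrium and along the vessels that invade the hypertrophic zone.

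The arrays measured amplified RNA in a single colour, and a level below is the normalized log2 intensity of a probe. Between 27 and 43 of the 62 probes were well above background by the scanner software on an array (passed background), none was saturated, 26 probes of 20 genes passed it on all 12 arrays, and 13 probes on no array. Over all spots the share well above background was 58.9 to 61.8% on the Schmid arrays, 48.0 to 59.4% on the Schmid wildtype arrays, 39.6 to 48.1% on the Cog arrays and 41.1 to 58.5% on the Cog wildtype arrays. The arrays lay on 4 slides, none of which held a mutant and its own wildtype, and for every change below the effects of slide and genotype cannot be told apart. A fall of a transcript in bulk tissue cannot be told apart from a loss of the cells that express it.

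Each probe is a 60-base stretch of the transcript's sense strand. The following are shown because results below turn on them. Each has at least 1 reading frame free of stop codons, which does not by itself show coding sequence. The first pair belongs to type IV chains that changed, and the second pair to Col22a1 and Col24a1. The last pair, from Col5a1 and Col5a3, shows what a collagen repeat looks like in a probe: the capitals mark glycine codons (GGN) in the Gly-X-Y register, 6 of them in the Col5a1 probe and 7 in the Col5a3 probe.
Col4a1, second probe: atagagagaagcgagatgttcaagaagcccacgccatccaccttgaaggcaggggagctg
Col4a6, first probe: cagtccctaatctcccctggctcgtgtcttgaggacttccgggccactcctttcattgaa
Col22a1, second probe: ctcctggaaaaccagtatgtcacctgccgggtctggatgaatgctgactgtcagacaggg
Col24a1, first probe: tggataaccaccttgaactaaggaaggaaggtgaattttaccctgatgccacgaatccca
Col5a1, second probe: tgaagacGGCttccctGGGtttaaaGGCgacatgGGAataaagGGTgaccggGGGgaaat
Col5a3, second probe: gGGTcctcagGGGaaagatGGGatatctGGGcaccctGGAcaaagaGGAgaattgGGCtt

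The deposited annotation places them on the mm7 build, with the transcript strand in brackets. The Col4a1 probe lies within chr8:11167857-11169691 (-) and crosses an intron, since the interval is longer than the probe. The Col4a6 probe lies at chrX:135831206-135831265 (-), the Col22a1 probe at chr15:71951550-71951609 (-) and the Col24a1 probe at chr3:145210470-145210529 (+). The Col5a1 probe, within chr2:27994034-27996457 (+), and the Col5a3 probe, within chr9:20655471-20656200 (-), also cross introns. Where a gene had several probes, they are called the first, the second and so on by falling mean level over the 12 arrays.

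In Schmid, 14 of the 62 probes were called, that is, they had an adjusted p no higher than 0.05 and a fitted change of at least 2-fold. They were 3 higher probes, of Col5a1, Col17a1 and Col20a1, and 11 lower probes. The lower ones belonged to 9 genes: Col4a1, Col4a2, Col8a1, Col8a2, Col13a1, Col16a1, Col18a1, Col22a1 and Col27a1. For Col17a1 no Schmid wildtype array was well above background, and only a rise of at least 1.90-fold can be given, under the 2-fold limit. The lower probes were 17.7% of the members, against 4.69% of all probes called lower, and the higher probes 4.84% against 5.78%. The median log2 fold change over the 62 probes was -0.30, against -0.06 over all probes. Groups did not overlap for 25 lower and 5 higher members: 40.3% of members were lower without overlap against 26% of all probes, and 8.06% were higher against 19.3%. Leaving out Schmid replicate 1 reduced the count of calls from 14 to 8, and scaling to the 75th percentile left 18 of 20 calls on the lower side with the processed signal and 15 of 17 with the normexp signal.

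In Cog, 4 probes were called. Col4a1, Col4a2 and Col4a4 were lower and Col4a6 was higher, so all of them were type IV chains. The 4 were 6.45% of the members, against 2.31% of all probes (1.56% higher and 0.748% lower), and the median log2 fold change over the members was -0.003 against -0.004 over all probes. The count was 2 without Cog replicate 2, and also 2 without Cog wildtype replicate 2 or replicate 3. Col4a1 and Col4a2 were the collagens called in both mutants, and both were lower in each. The 2 comparisons share no control arrays.

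**Figure D1:**
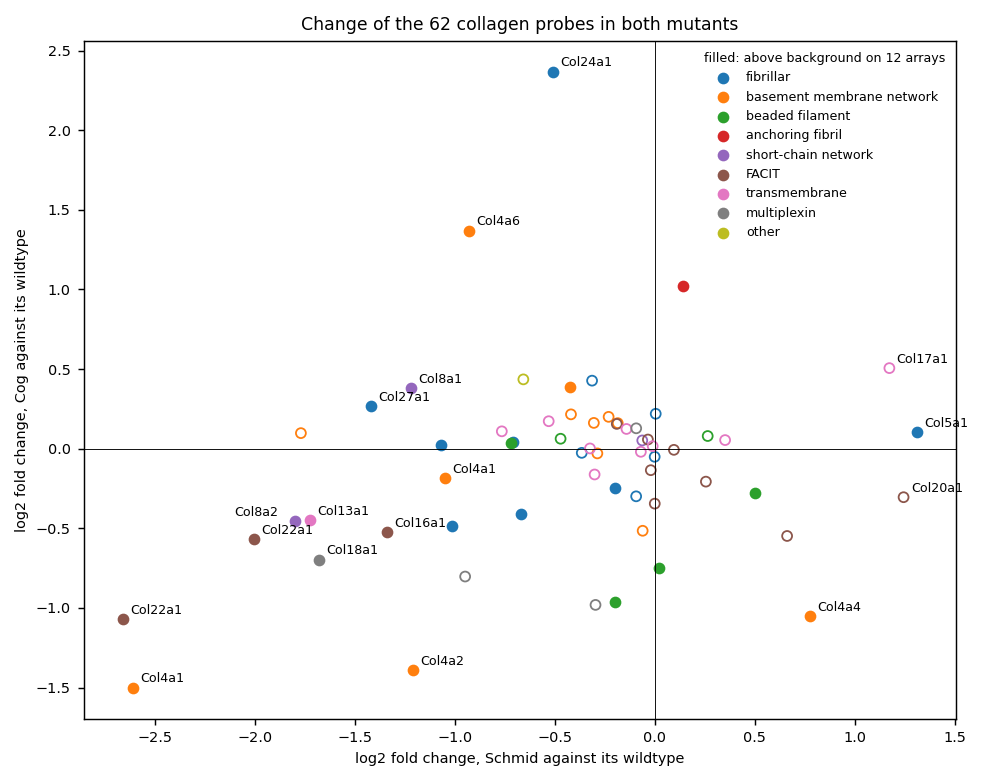
Log2 fold change of each of the 62 collagen probes in Schmid (horizontal) and in Cog (vertical), each against its own wildtype, coloured by structural class. Filled points mark the 26 probes that passed background on 12 of 12 arrays, and genes called in either mutant are named, with Col24a1. Most named points lie left of 0, whereas in Cog the named points spread on both sides, with Col4a6 up and Col4a4 down.

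Type IV collagen had 13 probes of 6 genes. In Schmid 3 of them were lower and none higher, and in Cog 3 were lower and 1 was higher, with 8 and 4 probes at an unadjusted p of 0.05 or less. The share of all probes at that limit is not given, so unadjusted counts, here and below, are not read as changes. In Schmid that share was large: by limma, Col9a1 had an unadjusted p of 0.04999 and an adjusted p of only 0.127. Col4a1 and Col4a2 encode the chains of the common basement membrane network found under endothelium and around most cells. The first Col4a1 probe measured 11.60, 11.13 and 11.08 on the Schmid arrays and 14.10, 13.99 and 13.56 on their wildtype arrays. On the Cog arrays it measured 12.83, 12.41 and 13.53, against 14.95, 14.08 and 14.24 on theirs. All mutant arrays were below all arrays of their wildtype. The fold change in Schmid was -6.11 (log2 fold change -2.61 ± 0.31 SE, adjusted p = 0.000491). In Cog it was -2.83 (-1.50 ± 0.31, adjusted p = 0.0262). The difference between these changes was not called (-1.11 ± 0.44 on the log2 scale, adjusted p = 0.11).

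The second Col4a1 probe, shown above, gave a smaller change. It read 9.97, 10.23 and 10.26 in Schmid against 11.28, 11.23 and 11.10 in the Schmid wildtype (fold change -2.07, adjusted p = 0.000519). In Cog it read 10.96, 11.08 and 10.98 against 11.35, 10.99 and 11.25, and these groups overlapped (fold change -1.14, adjusted p = 0.432). For this probe the change in Schmid was larger than that in Cog by -0.86 ± 0.18 on the log2 scale (adjusted p = 0.0104). Its Schmid call was lost, with a log2 fold change of -0.48 and an adjusted p of 0.065, after a trend over array rows and probe GC content was removed, and it fell just short of 2-fold without Schmid replicate 1 (log2 fold change -0.96). The difference call of this probe was lost with that trend removed and with processed signals scaled to the 75th percentile, at adjusted p of up to 0.639. The first probe's call in Cog was lost without Cog replicate 1 or 2 or without any of the 3 Cog wildtype arrays, at adjusted p of 0.057 to 0.0701, and in a fit of the Cog arrays and their wildtype alone (adjusted p = 0.0998). Its call in Schmid held in all 23 alternatives.

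Col4a2 was lower in both mutants. Its first probe read 10.49, 9.91 and 9.73 in Schmid and 11.64, 11.03 and 11.09 in the Schmid wildtype, for a fold change of -2.31 (log2 fold change -1.21 ± 0.23, adjusted p = 0.00518). In Cog the levels were 10.49, 10.41 and 10.83 against 12.14, 11.72 and 12.04, for a fold change of -2.63 (-1.39 ± 0.23, adjusted p = 0.0122). Neither pair of groups overlapped, and the 2 changes differed by 0.18 ± 0.33 on the log2 scale (adjusted p = 0.738). The second Col4a2 probe passed background on no array. With the row and GC trend removed, the Schmid change of the first probe was -0.91 (adjusted p = 0.0283), short of 2-fold, and with processed signals scaled to the 75th percentile the Cog change was -1.99 (adjusted p = 0.0596).

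The remaining type IV chains form specialised networks, such as those of kidney and smooth muscle. By its first probe, Col4a4 moved in opposite directions in the mutants, and its second probe passed background on no array. Its first probe read 12.30, 11.81 and 12.09 in Schmid, above 10.95, 11.43 and 11.50 in the Schmid wildtype (fold change 1.71, adjusted p = 0.0139, under the 2-fold limit). In Cog it read 11.06, 11.01 and 11.41, below 12.09, 12.25 and 12.30 in the Cog wildtype (fold change -2.07, adjusted p = 0.0144). The difference between the changes was 1.83 ± 0.26 on the log2 scale (adjusted p = 0.00177). The wildtype groups themselves stood 0.92 apart, the Schmid wildtype being lower (log2 difference -0.92 ± 0.18, adjusted p = 0.0511), so that Schmid levels lay near those of the Cog wildtype. The Cog call was lost without Cog replicate 2, where the log2 fold change was -0.98, and without Cog wildtype replicate 2 (adjusted p = 0.0633) or 3 (adjusted p = 0.054). It was also lost with processed signals scaled to the 75th percentile (-1.14, adjusted p = 0.164) and with the row and GC trend removed (-0.88, adjusted p = 0.048).

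By its first probe, Col4a6 was the mirror image. The first probe, shown above, read 12.81, 12.68 and 12.94 in Cog against 11.04, 11.76 and 11.52 in the Cog wildtype, a fold change of 2.58 (log2 fold change 1.37 ± 0.25, adjusted p = 0.0161). In Schmid it read 11.40, 11.60 and 11.61 against 11.89, 12.71 and 12.81, a fold change of -1.91 (adjusted p = 0.0221), under the 2-fold limit. Groups did not overlap in either comparison, and the changes differed by -2.30 ± 0.35 (adjusted p = 0.0024). Here too the wildtype groups stood apart, by 1.03 ± 0.25 with the Schmid wildtype higher (adjusted p = 0.086). The other Col4a6 probes were well above background on 6 and 3 arrays and were not called. In Cog the second had a log2 fold change of 0.10, and the third passed background on no Cog array, so neither showed the rise. The Col4a6 call in Cog was lost under the 75th percentile scaling of processed signals, at 1.38 (adjusted p = 0.122). The first Col4a6 probe was called lower in Schmid with array weights, with processed signals quantile normalized and without Schmid wildtype replicate 1 (-1.22, adjusted p = 0.00203), and the second, which passed background on no Schmid array, without Schmid wildtype replicate 3 and with normexp signals scaled. The difference calls of Col4a4 and Col4a6 held in all 22 alternatives in which they were computed.

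Col4a5 was not called, the log2 fold change being -0.43 ± 0.18 in Schmid (adjusted p = 0.104), where all Schmid arrays lay below the wildtype arrays, against 0.38 ± 0.18 in Cog (adjusted p = 0.246). Of the 3 Col4a3 probes only the first passed background, on 6 arrays, and it was not called in Schmid (-0.42 on the log2 scale, adjusted p = 0.182). The second, at 8.85 to 8.87 in Schmid against 9.06 to 9.27 in the Schmid wildtype and at 9.16 to 9.33 in Cog against 9.07 to 9.16 in the Cog wildtype, passed the test of the difference between mutants (adjusted p = 0.0415) at background intensities, where no fold is given. In the RefSeq annotation of GRCm38.p6 the 6 genes lie as head-to-head pairs. Col4a1 and Col4a2 overlap by 85 bases at their 5' ends on chromosome 8, Col4a4 and Col4a3 by 114 bases on chromosome 1, and Col4a6 and Col4a5 are 1274 bases apart on the X chromosome. Within the first pair both genes fell in both mutants. Within the others a called gene, Col4a4 or Col4a6, was paired with a gene that was not called in either mutant.

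**Figure D2:**
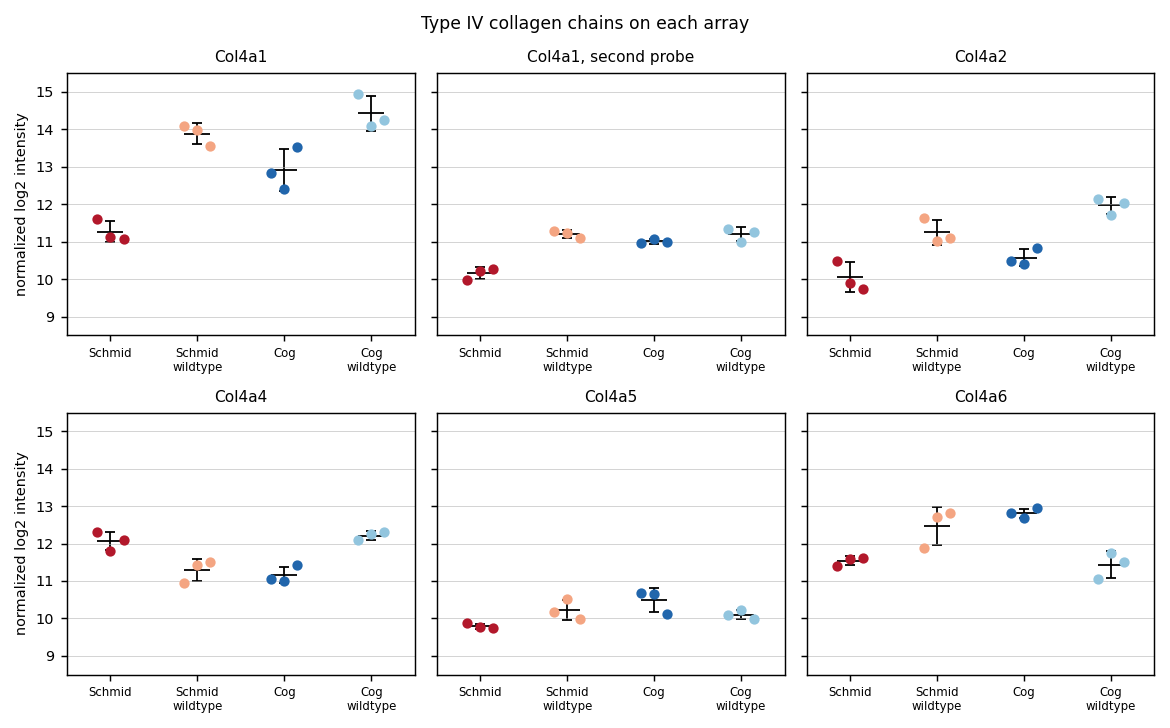
Normalized log2 intensity of type IV collagen probes on each array, by group. Points are mice, bars the group mean and SD (n = 3). Both Col4a1 probes and Col4a2 lie lower in Schmid than in its wildtype, and Col4a4 and Col4a6 change in opposite directions in Schmid and Cog.

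Endothelial markers had a median log2 fold change of -1.50 in Schmid and -0.62 in Cog. The first Col4a1 probe changed by -2.61 and -1.50, the second Col4a1 probe by -1.05 and -0.19, and the first Col4a2 probe by -1.21 and -1.39. Changes of Cdh5, Esam, Egfl7 and Plvap differed between the mutants by limma and were more negative in Schmid (16.6% of all probes differed in either direction). Of 11 endothelial genes, 7 were lower and 1, Vwf, was higher in Schmid, and 1, Cldn5, was lower in Cog. Their mean log2 level was 10.14 to 10.52 on the Schmid arrays against 11.41 to 11.89 in the Schmid wildtype, and 11.09 to 11.32 in Cog against 11.72 to 11.91 in the Cog wildtype. For Kdr, the main receptor for VEGF, Schmid gave a log2 fold change of -2.22 ± 0.42 (adjusted p = 0.00497) and Cog -1.08 ± 0.42 (adjusted p = 0.177, not called). Pecam1 passed background on no array. Of 5 red cell genes, 3 were lower in Schmid, with a mean level of 10.95 to 11.75 against 12.95 to 14.32. The part of vessel or blood cells in the collagen changes was not tested.

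None of 6 chondrocyte genes was called in either mutant by limma, with 3 at an unadjusted p of 0.05 or less in Schmid and 1 in Cog. Their mean levels were high, at 17.32 to 17.58 in Schmid against 17.47 to 18.06, and 17.71 to 17.85 in Cog against 17.43 to 18.04. The lack of calls in this short list does not show that chondrocyte expression was unchanged. Of 5 hypertrophic chondrocyte genes 2, Ihh and Alpl, were lower in Schmid and 1, Ihh, was lower in Cog. Mean levels over this list were 14.85 to 15.06 in Schmid against 15.58 to 16.95 in its wildtype. Ihh changed by -3.55 ± 0.31 on the log2 scale in Schmid and by -1.37 ± 0.31 in Cog. The Ihh changes differed by limma (-2.18, adjusted p = 0.0093). Alpl changed by -1.11 in Schmid and by 0.89 in Cog, where it was not called. Of 7 osteoblast genes 2 were lower in Schmid (mean level 14.06 to 14.44 against 14.91 to 16.08) and 1 in Cog. Among 8 fibroblast and perichondrial genes, 1, Thy1, was lower in each mutant. Thy1 changed by -2.73 ± 0.29 in Schmid and by -1.24 ± 0.29 in Cog on the log2 scale. The Thy1 changes also differed by limma (-1.49, adjusted p = 0.0345). A fall in both mutants that was larger in Schmid was therefore not limited to collagens and endothelial genes. Of 6 neutrophil genes none was called in either mutant by limma (1 unadjusted in Schmid, 0 in Cog), although the median over the list was -2.33 on the log2 scale in Schmid and 1.14 in Cog. Their mean levels overlapped in Schmid (9.35 to 11.40 against 9.88 to 14.22) and lay higher without overlap in Cog (10.51 to 12.43 against 10.04 to 10.43). None of 5 osteoclast genes was called (1 unadjusted in Schmid, 2 in Cog). Of 5 muscle genes 1, Myh3, was higher in Cog and none was called in Schmid (2 unadjusted), with mean levels of 10.30 to 12.48 in Schmid against 12.02 to 12.80 and 10.27 to 11.24 in Cog against 10.47 to 13.46. The part of these cells in the changes was not tested.

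Basement membranes are sheets in which type IV collagen is joined to laminins by nidogens, and 15 of 16 listed partners were on the array. In Schmid 4 were lower and 1, Lamb3, was higher. Nid1, a nidogen that links laminin to type IV collagen, averaged 12.17 in Schmid against 14.74 in its wildtype (fold change -5.91, adjusted p = 0.00011), close in size to the fall of the first Col4a1 probe. Nid2 changed by -3.57 (adjusted p = 0.000519), the laminin chain Lama4, which is prominent in vessels, by -2.33 (adjusted p = 0.0156) and Lamb2 by -2.05 (adjusted p = 0.0216). Lamb3, a laminin chain of epithelia, averaged 11.64 in Schmid against 10.19 in its wildtype (fold change 2.73, adjusted p = 0.000817), and Lama3, a chain of the same laminin, had a fold change of -1.33 (adjusted p = 0.183).

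In Cog none of the 15 partners was called by limma, and 2 were at an unadjusted p of 0.05 or less. Nid1 was the nearest, at -1.85 (adjusted p = 0.0448), under the 2-fold limit. Changes differed between the mutants for 3 partners, Lamb3, Nid1 and Nid2. For Nid1 the difference was -1.67 on the log2 scale (adjusted p = 0.00581). The median log2 fold change over the partners was -0.54 in Schmid and -0.022 in Cog.

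**Figure D3:**
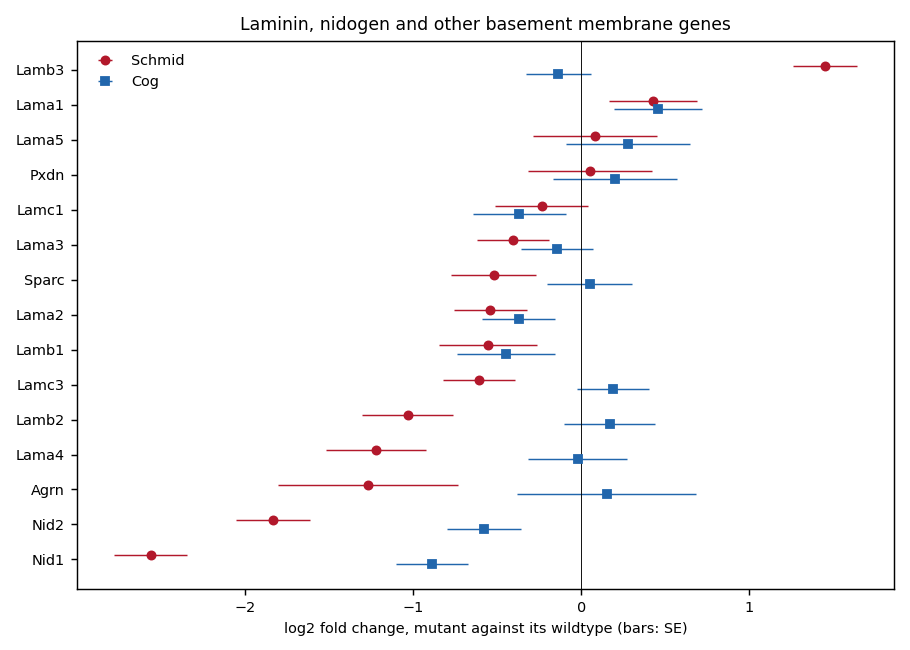
Log2 fold change of 15 basement membrane genes in Schmid (circles) and Cog (squares), each against its own wildtype, with SE bars. In Schmid, Nid1 and Nid2 lie at the low end and Lamb3 at the high end, whereas Cog values of these genes lie closer to 0.

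FACIT collagens, which bind to fibrils, had 11 probes of 6 genes, 3 lower and 1 higher in Schmid. Col22a1, whose protein is known from tissue junctions such as that of muscle and tendon and the junction of articular cartilage with synovial fluid, had the largest fall of all members in Schmid. Its first probe read 12.46, 12.76 and 12.75 in Schmid against 15.62, 15.77 and 14.57 in the Schmid wildtype, a fold change of -6.32 (log2 fold change -2.66 ± 0.45, adjusted p = 0.00265). Its second probe, shown above, read 10.28, 11.51 and 11.55 against 13.34, 13.16 and 12.84, a fold change of -4.01 (-2.01 ± 0.35, adjusted p = 0.00313). Both calls held in all 23 alternatives. In Cog the first probe read 14.05, 12.95 and 14.15 against 15.68, 14.26 and 14.42, lower without overlap but not called (fold change -2.10, adjusted p = 0.203), and the second read 12.36, 12.41 and 13.24 against 13.46, 12.99 and 13.27, with overlap (fold change -1.48, adjusted p = 0.385). The differences between the mutants were not called, at -1.59 ± 0.63 and -1.44 ± 0.49.

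Col16a1, a FACIT found in cartilage near collagen fibrils, read 12.14, 13.29 and 12.93 in Schmid and 14.22, 14.16 and 14.00 in the Schmid wildtype (fold change -2.54, adjusted p = 0.0226). All Schmid arrays were below the wildtype arrays. In Cog it read 13.69, 13.40 and 12.59 against 13.19, 13.91 and 14.14, with overlap (log2 fold change -0.53 ± 0.36, adjusted p = 0.434). The Schmid call was lost without Schmid replicate 1 (adjusted p = 0.0815) and without Schmid wildtype replicate 2 (adjusted p = 0.0692). Col20a1 was the FACIT gene that rose. It read 10.36, 10.98 and 10.97 in Schmid against 9.63, 9.59 and 9.35 in the Schmid wildtype, where 1 of 3 arrays was well above background (fold change 2.37, adjusted p = 0.0138), with a Cog value of -1.24 (adjusted p = 0.595) from levels of 10.27, 9.57 and 9.34 against 9.55, 10.52 and 10.02. The changes differed by 1.55 ± 0.42 on the log2 scale (adjusted p = 0.0308). The Schmid call of Col20a1 held in all 23 alternatives. Col12a1, Col14a1 and Col19a1 were not called, and of their 6 probes only the first of Col19a1 was well above background on more than 3 arrays.

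Col8a1 and Col8a2 encode the chains of type VIII collagen, a network of vessel walls and of the corneal endothelium. Both were lower in Schmid. Col8a2 read 10.81, 11.21 and 11.15 against 13.25, 12.82 and 12.51, a fold change of -3.48 (adjusted p = 0.0136). The first Col8a1 probe read 9.43, 10.60 and 9.78 against 11.26, 11.33 and 10.88, a fold change of -2.33 (adjusted p = 0.0193). A further Col8a1 probe passed background on no array. In Cog the log2 fold changes of Col8a2 (-0.46 ± 0.42, adjusted p = 0.58) and Col8a1 (0.38 ± 0.31, adjusted p = 0.525) were not called, and both groups overlapped their wildtype. The Cog levels were 11.42, 12.22 and 12.56 for Col8a2 against 11.49, 12.94 and 13.14, and for Col8a1 11.12, 10.51 and 11.23 against 10.21, 10.58 and 10.94. The Col8a1 changes differed between the mutants by -1.60 ± 0.44 (adjusted p = 0.0342), and those of Col8a2 by -1.34 ± 0.60 (adjusted p = 0.151). The Col8a2 call was lost without Schmid replicate 1 (adjusted p = 0.0524). That of Col8a1 was lost without Schmid replicate 1 (adjusted p = 0.073) or 3 (adjusted p = 0.0624), without Schmid wildtype replicate 2 (adjusted p = 0.0709), and with the row and GC trend removed (log2 fold change -0.95, adjusted p = 0.046).

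Col18a1 is the source of endostatin, a fragment that inhibits vessel growth, and its protein lies in basement membranes of vessels. The first probe read 10.30, 11.66 and 11.27 in Schmid and 12.77, 13.19 and 12.32 in the Schmid wildtype, a fold change of -3.21 (adjusted p = 0.00794). The second probe gave -1.93 (adjusted p = 0.00492), under the 2-fold limit, and was called at log2 fold changes of -2.45 to -1.29 with the other scalings of processed and normexp signals, and without Schmid replicate 2 (-1.09) or Schmid wildtype replicate 3 (-1.06). In Cog the first probe read 11.48, 11.85 and 12.39 against 12.79, 12.43 and 12.60. Both probes were lower there without overlap and not called: the first gave -1.62 (adjusted p = 0.29), and the second, for which no Cog array was well above background, was at least 1.70-fold lower (adjusted p = 0.0354). The changes in the mutants differed by -0.98 ± 0.50 for the first probe and by -0.15 ± 0.26 for the second, and neither difference was called. Col15a1, the related multiplexin of vessel and muscle basement membranes, was not called in either mutant. The Schmid fold change of its first probe was -1.23 (adjusted p = 0.587), while in Cog, where no array was well above background, it was at least 1.25-fold lower (adjusted p = 0.164).

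Of the transmembrane collagens, Col13a1, which sits at sites of cell adhesion, was lower in Schmid. Its first probe read 11.53, 11.88 and 11.42 against 13.53, 13.50 and 12.98, a fold change of -3.31 (log2 fold change -1.72 ± 0.28, adjusted p = 0.00234), and the call held in all 23 alternatives. In Cog it read 12.08, 12.45 and 13.28 against 13.25, 13.02 and 12.88, with overlap (fold change -1.37, adjusted p = 0.397). The difference between these changes was -1.27 ± 0.40 (adjusted p = 0.0543), just outside the limit. Col17a1, a component of the hemidesmosomes that fix epithelia to laminin, was higher in Schmid. Its first probe read 10.49, 10.40 and 10.43 against 9.29, 9.09 and 9.42, and since no Schmid wildtype array was well above background it was at least 1.90-fold higher (adjusted p = 0.0482). In Cog, where 1 array passed background, it read 9.56, 9.496 and 11.17 against 9.25, 9.99 and 9.46 (adjusted p = 0.486). With the replicate number as a block the adjusted p in Schmid was 0.0542, and leaving out any Schmid, Schmid wildtype or Cog wildtype array gave 0.0527 to 0.14. The log2 fold change was 1.17 in the fit reported, 0.91 (adjusted p = 0.0602) with normexp signals scaled to the 75th percentile, and 3.31 (adjusted p = 0.0103) and 3.44 (adjusted p = 0.0299) with processed signals scaled or quantile normalized. Lamb3, a chain of a laminin that hemidesmosomes bind, was higher on the Schmid arrays too, as given above. Lama3, a chain of the same laminin, was not (fold change -1.33, adjusted p = 0.183 by limma). A link between these genes was not tested.

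Col23a1 was not called in Schmid. Its first probe was well above background on no Schmid array and on all 3 Schmid wildtype arrays, and was at least 1.67-fold lower (adjusted p = 0.0183). The second read 9.31, 9.32 and 9.36 in Schmid against 9.65, 9.89 and 10.05, and 10.12, 10.05 and 9.77 in Cog against 9.82, 9.74 and 9.86. It had a Schmid fold change of -1.45 (adjusted p = 0.0156) and differed between the mutants by -0.70 ± 0.18 (adjusted p = 0.0273, or 0.0518 with the replicate block). Its Schmid log2 fold change depended on the background correction: it was called at -1.48 (adjusted p = 0.0128) with processed signals scaled to the 75th percentile and at -1.52 (adjusted p = 0.00306) with them quantile normalized, and was 0.02 with the row and GC trend removed. Col25a1, known from neurons and from muscle during innervation, was not called, and its first probe had a log2 fold change of -0.07 in Schmid (adjusted p = 0.767).

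**Figure D4:**
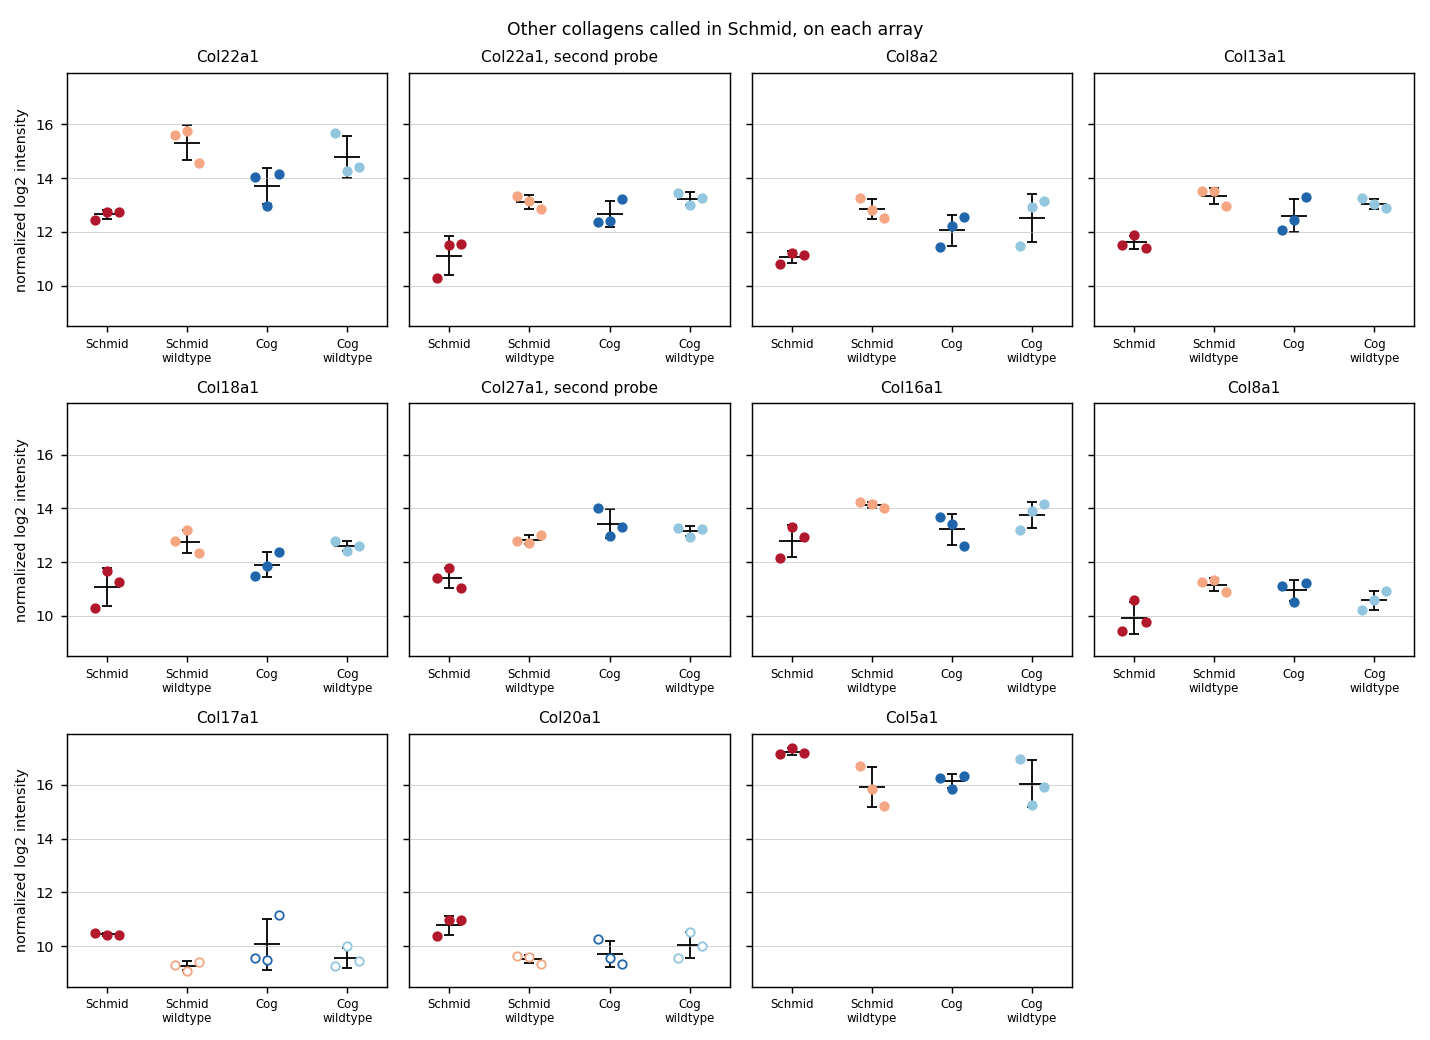
Normalized log2 intensity on each array of the collagens outside type IV that were called in Schmid. Points are mice, open where the probe was not well above background on all 3 arrays of the group, and bars are the group mean and SD (n = 3). The top rows show genes lower in Schmid than in its wildtype, and the bottom row Col17a1, Col20a1 and Col5a1, which were higher.

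Among fibrillar collagens outside the types left out, 13 probes of 6 genes, 1 was higher and 1 lower in Schmid and none was called in Cog, where 3 probes had an unadjusted p of 0.05 or less. Col5a1 encodes a chain of type V collagen, which starts and limits the growth of type I fibrils. Its first probe read 17.14, 17.38 and 17.17 in Schmid and 16.69, 15.85 and 15.23 in the Schmid wildtype (fold change 2.48, adjusted p = 0.0497). This call sat at the limit and was lost in 14 of 23 alternatives, among them leaving out any Schmid array, Schmid wildtype replicate 2 or 3, any Cog array or Cog wildtype replicate 3 (adjusted p of 0.0593 to 0.158). In Cog the first probe read 16.25, 15.85 and 16.33 against 16.96, 15.24 and 15.93, with overlap (adjusted p = 0.918). The second Col5a1 probe, shown above, had a log2 fold change of -0.09 (adjusted p = 0.565). Col5a2 and Col3a1 were not called, and their first probes had fold changes of -1.15 and -1.59 in Schmid. The Col5a3 probe with the glycine repeat fell short of 2-fold in Schmid (-0.37 on the log2 scale, adjusted p = 0.0388), and with processed signals was called at -1.24 and -1.15.

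Col27a1, a fibrillar collagen of cartilage, was measured by 3 probes, all well above background on all arrays. The second read 11.43, 11.79 and 11.05 in Schmid against 12.78, 12.72 and 13.02, a fold change of -2.68 (log2 fold change -1.42 ± 0.26, adjusted p = 0.00431). In Cog it read 14.01, 12.96 and 13.29 against 13.27, 12.95 and 13.25, with overlap, and the changes differed by -1.69 ± 0.37 (adjusted p = 0.0137). Both calls held in all alternatives. The other probes pointed the same way in Schmid, at -2.10 (adjusted p = 0.081) for the first and -1.63 (adjusted p = 0.226) for the last, and were not called. The first probe was called with the replicate block (adjusted p = 0.036), with array weights and without Schmid wildtype replicate 2 (log2 fold change -1.55, adjusted p = 0.0162). It was also called with slide as a random block, which cannot separate slide from genotype here.

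Col24a1, a fibrillar collagen of forming bone, had the largest positive value of the members in Cog, although it was not called. The first probe, shown above, read 13.48, 12.72 and 12.61 in Cog and 11.83, 9.66 and 10.22 in the Cog wildtype, a fold change of 5.16 (log2 fold change 2.37 ± 0.61, adjusted p = 0.0559). The adjusted p passed the limit without Cog wildtype replicate 1 (0.0194) or Schmid wildtype replicate 1 (0.034) or 3 (0.0366), and in 5 other alternatives (0.00427 with array weights). In Schmid it read 10.48, 10.99 and 10.35 against 10.05, 11.05 and 12.24. The second probe had a log2 fold change of -0.48 in Cog (adjusted p = 0.709), so the probes did not show the same direction. The first probe lies in the 5' part of the gene relative to the second, at a lower coordinate on the same strand.

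Type VI collagen, the beaded filament of the matrix around chondrocytes, had 6 probes of 3 genes and no call. Col6a1 came nearest: in Cog it read 14.74, 14.75 and 15.01 against 15.69, 15.70 and 16.004, a fold change of -1.95 (adjusted p = 0.0269), and in Schmid its fold change was -1.15 (adjusted p = 0.488). Its Cog change passed 2-fold without Cog replicate 3 (log2 fold change -1.05, adjusted p = 0.0438) or Cog wildtype replicate 1 (-1.02, adjusted p = 0.0415). Log2 fold changes of the 2 Col6a2 probes were -0.72 and 0.02 in Schmid and 0.03 and -0.75 in Cog, so these probes ranked the mutants in opposite orders. The first Col6a3 probe had log2 fold changes of 0.50 and -0.28 in Schmid and Cog. The second passed background on 4 arrays, read 9.11 to 9.23 in Schmid against 9.51 to 9.72 in the Schmid wildtype and 9.56 to 9.84 in Cog against 9.62 to 9.65 in the Cog wildtype, and was at least 1.36-fold lower in Schmid (adjusted p = 0.0112). The test of the difference passed (adjusted p = 0.0376), but no Schmid or Cog array passed background, and no size is given. Col7a1, the anchoring fibril of skin, had a fold change of 2.03 in Cog with an adjusted p of 0.311. Col28a1 passed background on no array, and no fold is given: its level was 8.59 to 8.75 in Schmid against 9.25 to 9.40 in the Schmid wildtype, and 9.32 to 9.41 in Cog against 8.88 to 8.95 in the Cog wildtype.

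Probes of a gene often disagreed in size. Of the 23 genes with several probes, the probe nearest the 3' end was the brightest in 15. That probe was well above background on all 12 arrays for 12 of 23 genes, against 9 of 31 other probes. Col4a1 and Col22a1 were the genes with more than 1 probe called in Schmid. For Col4a2, Col8a1, Col13a1 and Col16a1 the probe that was not called was well above background on at most 2 arrays.

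**Figure D5:**
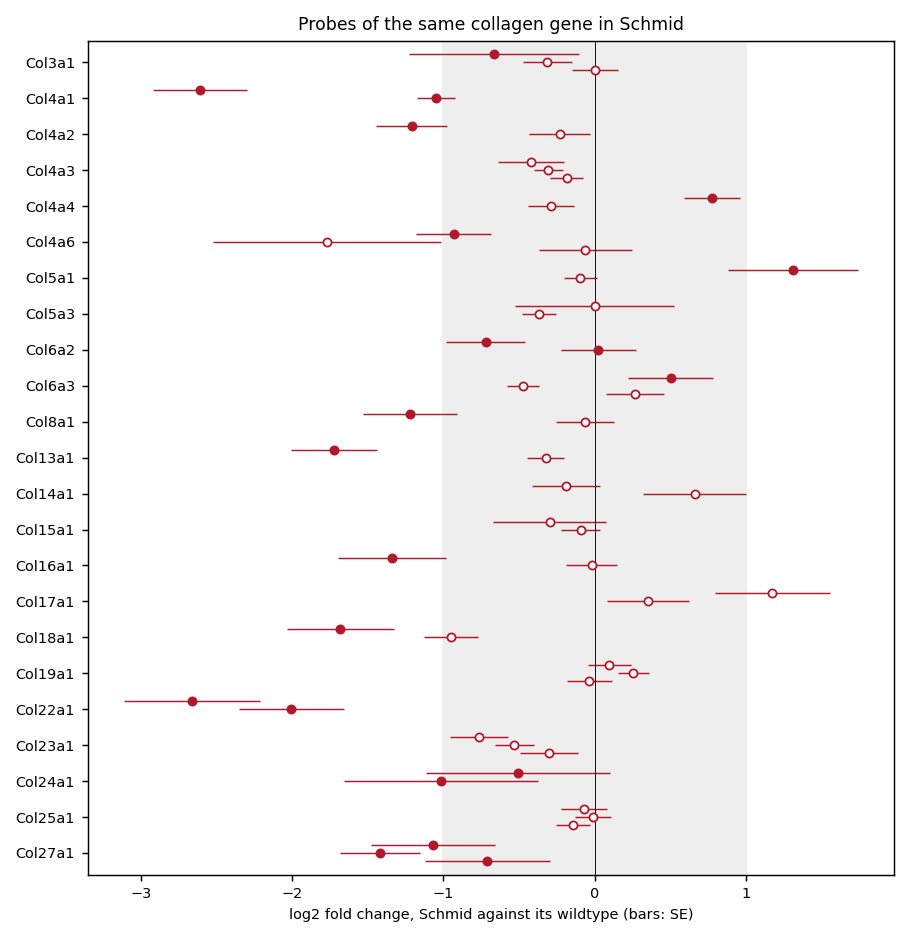
Log2 fold change in Schmid, with SE bars, of every probe of the 23 genes with several probes, brightest probe on top. Filled points were well above background on all 12 arrays, and the shaded band spans changes under 2-fold. Dim probes (open) lie nearer 0 than the filled probe of the same gene in Col4a2, Col8a1, Col13a1 and Col16a1.

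The size of the change differed between Schmid and Cog for 11 of the 62 probes, 17.7% of the members against 16.6% of all probes, a share near the background, and 2 of the 11, of Col4a3 and Col28a1, passed background on no array. Of these 9 were more negative in Schmid and 2 more positive, where 10.2% and 6.38% of all probes were. The count was 5 to 17 when single arrays were left out. It was 6 without any of the Schmid arrays or Cog wildtype replicate 2, 7 without Cog replicate 1 or Cog wildtype replicate 3, 5 without Schmid wildtype replicate 2 and 17 without Schmid wildtype replicate 1. Between the wildtype groups none of the 62 probes was called by limma, against 0.469% of all probes (0.233% higher and 0.236% lower in the Schmid wildtype), and 5 had an unadjusted p of 0.05 or less. Among the 9 collagens left out, 4 were lower in Schmid: Col1a1 (fold change -2.35), Col9a2 (-2.25), Col9a3 (-3.06) and Col11a2 (-3.01). None of these 9 was called in Cog, where 1 had an unadjusted p of 0.05 or less.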

How the data were processed

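RNA of 12 mice was amplified in repeated linear rounds, which favour 3' ends, and hybridized with Cy3 to Agilent whole mouse genome arrays. The authors deposited the scanner output (Agilent Feature Extraction 9.5.3), with the intensity of 45018 spots and their local background, and a matrix of log2 values of the same arrays, used here as an alternative. Outlier spots were left out (99.81% kept), normexp background correction (offset 50) was followed by removal of control probes, quantile normalization and averaging per probe, and limma was fitted to the 4 groups (8 residual degrees of freedom) with Benjamini-Hochberg adjustment over 41174 probes. Calls needed an adjusted p no higher than 0.05 and a fitted change of at least 2-fold, whereas a difference between mutants was called by the adjusted p alone. Fold changes below wildtype are negative. Calculations used R 4.3.3, limma 3.58.1, data.table (1.17.8) and statmod 1.5.0, and the procedure was tested on simulated data. Where no array of a group was well above background, a bound replaced the fold: the bright group's mean against, per array, the higher of the lowest level well above background and the probe's own level, averaged on the log2 scale.

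The members and lists were chosen with earlier results of these data known. Every member is named at least once, with array values for members with a called probe. List genes are given by their brightest probe, and list levels are means of log2 values. A gene of the partner list is not reported here. RefSeq symbols matched all 31 genes. No transcript annotation of mm7 was used.

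Replicate numbers carry no stated pairing. Over probes well above background, deviations of same-numbered arrays correlated by 0.307, 0.283 and 0.117 between Schmid and its wildtype, which would count as paired. In Cog they correlated by -0.208, 0.151 and -0.2, which would not. Between the wildtype groups, whose mice are of different backgrounds, the values were 0.504, 0.115 and 0.274. Such a correlation therefore does not by itself show that mice were paired. Over all probes the Schmid values were 0.193, 0.171 and 0.066. The fit had no replicate block, and the block was an alternative, beside other background corrections and scalings, filters, array weights, slide as a block, removal of the row and GC trend, treat, and leaving out each array. P-values rest on the spread between arrays, each of 1 mouse with its own dissection, amplification and hybridization. That spread was estimated over all 4 groups together, so Cog arrays also bear on the p-values of Schmid changes, and the reverse.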

Additional observations from a re-analysis of the deposited data

Results flagged for a closer look

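Schmid and Cog changes differed, by limma's test of the difference at an adjusted p of 0.05 or less, for 11 member probes, given here as the Schmid minus the Cog log2 fold change. For probes that passed background on 12 of 12 arrays, differences were -0.86 for Col4a1 (second probe), 1.83 for Col4a4, -2.30 for Col4a6, -1.60 for Col8a1, -2.88 for Col24a1 (first probe) and -1.69 for Col27a1 (second probe). On probes well above background on some arrays they were 1.55 for Col20a1 (7 arrays) and -0.70 for Col23a1 (8 arrays). The test also passed for 3 probes whose sizes are differences of intensities at background in both mutants, not measured changes of expression: -0.53 for Col6a3 (second probe, 4 wildtype arrays well above background), -0.47 for Col4a3 (second probe) and -1.09 for Col28a1, the last 2 well above background on no array.

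The Col24a1 difference had an adjusted p of 0.0456, and of 0.0632 to 0.102 without any Schmid or Cog array, Schmid wildtype replicate 2 or 3 or Cog wildtype replicate 2 or 3. That of Col8a1 was 0.0342, and 0.0705 to 0.0788 without Schmid replicate 1 or 3, Schmid wildtype replicate 2, Cog replicate 1 or 3 or Cog wildtype replicate 1 or 2. That of Col20a1 was 0.0308, and 0.0569 to 0.0711 without Schmid replicate 2 or 3, Schmid wildtype replicate 2 or 3, Cog replicate 2 or 3 or Cog wildtype replicate 2 or 3. The Col23a1 difference had an adjusted p of 0.052 to 0.0701 without any Schmid array, Schmid wildtype replicate 2 or 3, Cog replicate 1 or 2 or Cog wildtype replicate 2. With the replicate block the calls of Col4a3 (adjusted p = 0.0731), Col6a3 (0.0642), Col8a1 (0.0528), Col23a1 (0.0518) and Col24a1 (0.0715) were lost. The Col4a1 (second probe) difference was lost with processed signals scaled to the 75th percentile and with the row and GC trend removed.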

How the results depend on the processing

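Limits: 3 mice a group, probes near background, and slides that no group shares with its control. Over 23 alternatives per probe, the Schmid calls of Col4a1 (first probe), Col13a1, Col18a1, Col20a1, Col22a1 (both) and Col27a1 held throughout. The 14 Schmid calls became 23 without a fold limit, 1 with treat (a test against 2-fold), and 8 to 14 with single arrays left out. The 4 Cog calls became 1 with processed signals divided by their 75th percentile (the processed scaling), 7 without a fold limit, 0 with treat (1 unadjusted, at a p of up to 0.05), and 2 to 5 with single arrays left out. The 11 differences became 6 with the processed scaling, 20 with slide as a random block (consensus correlation -0.122), 0 with treat (4 unadjusted), and 5 to 17 with single arrays left out. Since no slide held a mutant and its own wildtype, the slide block could not remove a slide effect from any change. Calls held or gained under it are no check on the slides. The replicate block gave 14 Schmid calls (12 lower), 4 Cog calls and 8 differences, losing Col17a1 in Schmid and gaining the first Col27a1 probe (adjusted p = 0.036). It changed no call in Cog.

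The Schmid median log2 fold change (-0.30) was -0.88 with the processed scaling, -0.77 with processed signals quantile normalized, -0.61 with normexp signals scaled the same way, -0.47 without dim probes, -0.25 with the row and GC trend removed, and -0.35 to -0.28 with single arrays left out. The Cog median (-0.003) was 0.10 with the processed scaling and -0.16 without dim probes, and -0.06 to 0.02 with single arrays left out. Scaling moved the median of all probes in Schmid to -0.40 (processed) and -0.35 (normexp), and in Cog to 0.43 (processed).

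Signs turned for changes near 0 or probes near background. With processed signals quantile normalized, Col4a3 (second probe) was 0.095 in Schmid, -0.065 in Cog and 0.16 for the difference, and Col6a3 (second probe) -0.010 in Cog. With the row and GC trend removed, Col6a3 was -0.051 in Cog and 0.025 for the difference, and Col23a1 0.015 in Schmid. Col5a1 in Cog was -0.024 with the processed scaling and -0.14 with the normexp scaling, which also gave -0.21 for the Col4a2 difference. Leaving out single arrays gave Cog ranges of -0.30 to 0.56 for Col5a1 (lowest without Cog wildtype replicate 2), -0.012 to 0.13 for Col6a3 (Cog replicate 1), -0.027 to 0.50 for Col27a1 (Cog replicate 1) and -0.041 to 0.79 for Col17a1 (Cog replicate 3). The Col4a2 difference ran from -0.044 (Schmid replicate 1) to 0.37, and Col24a1 in Schmid from -1.04 to 0.053 (Schmid wildtype replicate 3). The cause was not tested.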
